A study of Mus musculus with 2 samples.

Results

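The secreted cytokine genes of natural killer (NK) cells outside the TNF, TGF-beta and chemokine families were examined in NK cells sorted from mouse liver. The 10 genes were Ifng, Il2, Il6, Il10, Il15, Il18, Csf1, Csf2, Flt3l and Areg. They were chosen by name, with earlier results of these data known, through every probe set annotated to exactly 1 of these symbols. Probe sets of this kind existed for 8 of the 10 genes, 11 probe sets in all, against 18194 genes with such a probe set on the whole array. Flt3l shared its listed probe set with another gene and Areg had none listed for it, so neither has a value here. DX5- NK1.1+ CD3- cells were set against DX5+ NK1.1+ CD3- cells, both from the liver of naive wild-type B6 mice, with 1 array per population. DX5 is an antibody to the integrin chain CD49b, which marks most circulating mouse NK cells. The sources used here do not give age, sex or how many mice each array stands for.

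NK cells act through killing and through the cytokines they release. Interferon gamma (Ifng) activates macrophages and raises antigen presentation, GM-CSF (Csf2) and M-CSF (Csf1) act on myeloid cells, and IL-10 (Il10) restrains inflammation. IL-2 (Il2) is a growth factor of lymphocytes made mainly by activated T cells, while IL-15 (Il15) and IL-18 (Il18) reach NK cells mostly from myeloid and stromal cells. IL-6 (Il6) is an inflammatory cytokine best known from macrophages, stromal cells and B cells. Many messenger RNAs of this class are short-lived and respond quickly to stimulation.

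A level below is a MAS5 intensity, a linear signal per probe set with no fixed physical unit, and a log2 ratio is DX5- minus DX5+. A probe set was called detected above 98.5 on the DX5- array or 108 on the DX5+ array. Each limit is the 95th percentile on that array of 152 probe sets, picked for genes with little expected use in lymphocytes. These include Crybg1, Crybg2, Crybg3 and Opn3, which are used outside lens and retina. Without them 148 probe sets remain and the limits are 76.2 and 80.1. A 99th percentile limit, 385 and 159, rests on few probe sets. The limits of 98.5 and 108 were used unless stated. A gene that passed the limit on a single array got the limit as its value on the other, and its fold is then a lower bound, written "at least". With 1 array per population there is no spread between samples and no test; folds describe these arrays, and differences between mice or sorts cannot be told apart from differences between the populations. The available measure of error is the SD of the log2 ratio between probe sets of the same gene, which was 0.37 among the dimmest of 4043 genes, 0.33 among those of middle brightness and 0.25 among the brightest (groups of equal size), and which covers probe noise only. All 12 NK cell marker genes that had their own probe set were detected in both populations, with a median log2 ratio of -0.0028, though Cd7 was 5.87-fold higher and Prf1, the perforin gene, 2.89-fold lower in DX5- cells. Liver-resident NK and ILC1 (innate lymphoid) markers separated the arrays, with 8 of 9 detected higher in DX5- cells by 2-fold or more (median log2 ratio 2.76, sums 30956 in DX5- cells and 5398 in DX5+ cells). The list for circulating NK cells ran the other way, with 9 of 10 lower by 2-fold or more (median -2.87, sums 8066 in DX5- cells and 44537 in DX5+ cells). Over all detected genes 3.62% were higher and 5.37% lower to this extent. Both lists were chosen with earlier results of these data known, so the split is not independent support for what the populations are. The gene of the DX5 antigen, Itga2, was below the limits on both arrays, though narrowly so for DX5+. Its DX5+ intensity of 105.2 lay just under the limit of 108 and above the alternative limit of 80.1. Its DX5- intensity, 29, was under every limit given here.

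The cytokine genes differed in opposite directions. Il2 and Csf2 were more than 2-fold higher in DX5- cells, Il6 was more than 2-fold lower, and Ifng, Il10, Il15 and Csf1 were within 2-fold. Of the 7 detected members 2 (28.6%) were higher by 2-fold or more, where 3.62% of 9843 detected genes were, and 1 (14.3%) was lower by 2-fold or more, where 5.37% of detected genes were. Since the members were chosen with earlier results of these data known, these shares are a description only. The median log2 ratio of the 7 genes was 0.33, beside -0.012 over all detected genes. Il18 was not detected on either array. These counts of 2 and 1 were the same under each of the 10 other settings tried, although Il10 was undetected under the 99th percentile limit. Among all genes that passed 2-fold, 40.2% were higher in DX5- cells as deposited, 56.7% with median centring, 63.1% with spike-in scaling and 53.7% under a 99th percentile limit. At 4-fold, 1 member (Il2) was higher, where 0.640% of detected genes were, and 1 (Il6) was lower, where 0.864% were.

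**Figure D1:**
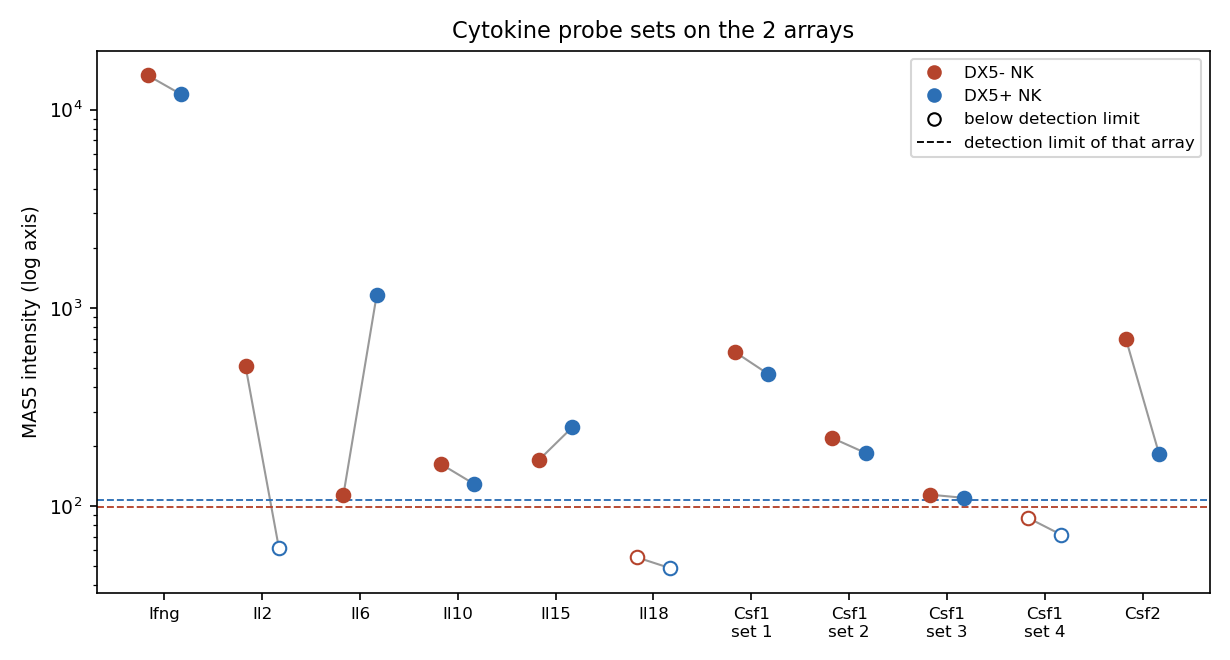
MAS5 intensity (log axis) of each of the 11 cytokine probe sets, with the DX5- array at the left and the DX5+ array at the right of each pair; open points lie below the dashed detection limit of their own array. Il2 and Csf2 slope down towards DX5+ cells, Il6 runs the other way (114 in DX5- cells, 1158 in DX5+ cells), and all 4 Csf1 probe sets slope down slightly.

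Ifng, the signature cytokine of NK cells, had an intensity of 14891 in DX5- cells and 11958 in DX5+ cells. It was 1.25-fold higher in DX5- cells, a log2 ratio of 0.32, or 1.26 times the SD between probe sets of similar brightness. Its transcript was thus well above the limit in both populations, with a small difference between the arrays.

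Il2 read 507 in DX5- cells, against 61.8 in DX5+ cells, where it was under the limit. Its level in DX5- cells was at least 4.71-fold higher, and this bound was 5.98 times the probe-set SD. With the limit at the 99th percentile, 159 on the DX5+ array, the bound was 3.19-fold. The transcript was measurable in DX5- cells only, and by 1 probe set.

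Csf2 read 697 in DX5- cells, against 183 in DX5+ cells, above the limit in both. It was 3.81-fold higher in DX5- cells, with a log2 ratio of 1.93 that was 5.16 times the probe-set SD and ranked 70 from the highest. Csf1, the related growth factor of macrophages, did not share this difference in size. Its brightest probe set read 601 in DX5- cells, against 465 in DX5+ cells, a 1.29-fold higher level in DX5- cells. The next probe sets of Csf1 read 220.4 in DX5- cells against 185 in DX5+ cells, and 114 against 110.2. The last read 87.3 and 71.7, below both limits. All 4 Csf1 probe sets were higher in DX5- cells, with a mean log2 ratio of 0.24 and an SD of 0.13 between them, so their direction was shared and their size was under 2-fold.

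Il6 read 114 in DX5- cells, just above the limit of 98.5, and 1158 in DX5+ cells. It was 10.2-fold lower in DX5- cells, a log2 ratio of -3.34 that was 8.94 times the probe-set SD. Its ratio ranked 6 from the lowest of 9843 detected genes, bounds included. The size depends on the dim DX5- value: with the limit at the 99th percentile, 385 on that array, Il6 was at least 3.01-fold lower.

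Il10 read 163 in DX5- cells, against 129 in DX5+ cells, near the limit on both arrays, and was 1.26-fold higher in DX5- cells. Its log2 ratio of 0.33 was smaller than the probe-set SD. Il15 read 171 in DX5- cells, against 250 in DX5+ cells, and was 1.46-fold lower in DX5- cells, with a log2 ratio of -0.55. Il18 read 55.2 in DX5- cells, against 48.7 in DX5+ cells, below both limits, so no fold is given. Il15 and Il18, which NK cells mainly receive from other cells, thus lay near or below the limits in both sorts.

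**Figure D2:**
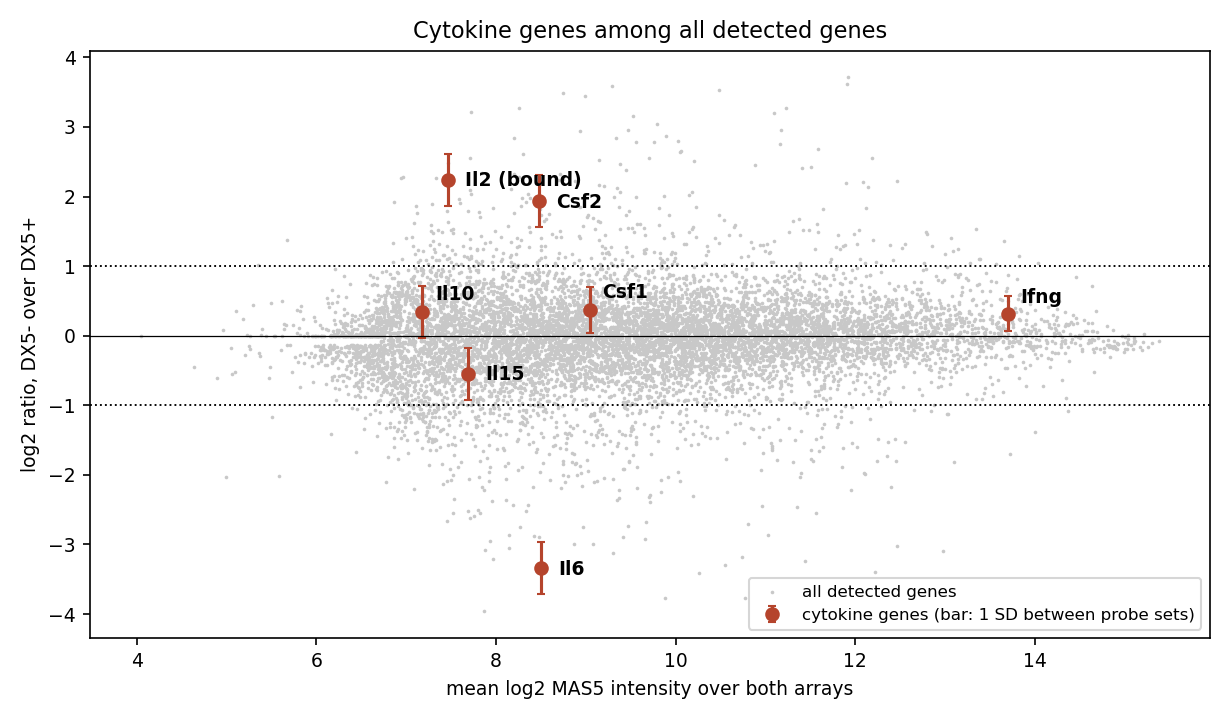
Log2 ratio of DX5- over DX5+ (vertical axis) against the mean log2 intensity of both arrays (horizontal axis), with all 9843 detected genes in grey and the 7 detected cytokine genes in red; bars are 1 SD between probe sets of the same gene at that brightness and dotted lines mark 2-fold. Il2 (a bound) and Csf2 lie above the upper line, Il6 lies near the lower edge of the cloud, and Ifng, Il10, Il15 and Csf1 lie inside the lines.

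The stretches of 250 bases before the start sites of Il2 and Csf2, the members past 2-fold higher in DX5- cells, are shown beside those of Il6, the member past 2-fold lower, and of Ifng, which was near equal. They come from RefSeq (build GRCm38.p6), run 5′ to 3′ and end at the base before the start site. Capitals mark matches, searched on both strands, to the TATA box TATAAA, to the core GGAAA that NFAT binds, to the AP-1 site TGANTCA and to a loose NF-kB pattern, a run of G and a pair of C with free bases between.
Il2, chr3:37125955-37126204, minus strand: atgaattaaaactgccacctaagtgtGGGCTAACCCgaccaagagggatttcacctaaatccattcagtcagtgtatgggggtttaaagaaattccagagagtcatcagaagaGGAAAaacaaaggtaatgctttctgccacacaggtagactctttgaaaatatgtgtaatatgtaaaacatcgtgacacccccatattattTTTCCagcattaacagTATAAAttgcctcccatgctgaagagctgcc
Csf2, chr11:54249900-54250149, minus strand: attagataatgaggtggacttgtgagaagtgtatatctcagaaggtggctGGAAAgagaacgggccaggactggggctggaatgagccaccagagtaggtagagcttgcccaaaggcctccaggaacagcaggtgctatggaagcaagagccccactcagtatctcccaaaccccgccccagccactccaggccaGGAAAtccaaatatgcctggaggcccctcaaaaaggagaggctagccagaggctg
Il6, chr5:30012864-30013113, plus strand: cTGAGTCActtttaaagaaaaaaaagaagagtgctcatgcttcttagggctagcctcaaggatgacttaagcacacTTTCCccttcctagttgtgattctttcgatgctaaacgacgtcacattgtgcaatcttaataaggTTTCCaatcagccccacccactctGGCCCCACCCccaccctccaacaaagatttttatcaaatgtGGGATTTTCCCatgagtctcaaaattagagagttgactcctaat
Ifng, chr10:118440796-118441045, plus strand: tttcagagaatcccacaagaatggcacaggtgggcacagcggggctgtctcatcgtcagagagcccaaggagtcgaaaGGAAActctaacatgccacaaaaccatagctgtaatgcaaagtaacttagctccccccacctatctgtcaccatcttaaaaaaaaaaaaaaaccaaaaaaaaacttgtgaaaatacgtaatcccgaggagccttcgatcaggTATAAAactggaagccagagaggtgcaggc

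NFAT, AP-1 and NF-kB are factors through which receptor signals switch on cytokine genes. The GGAAA core occurred 2 times before Il2, at 137 and 47 bases before the start, and 2 times before Csf2, at 200 and 55 bases before it. It occurred 3 times before Il6 and 1 time before Ifng, and 55.6% of 32851 promoter stretches of the same length hold it. The loose NF-kB pattern had 1 match before Il2 and none before Csf2 or Ifng. Before Il6 it had 3 matches, of which those starting 44 and 43 bases upstream overlap each other and a GGAAA core on the minus strand. It was present in 45.8% of all stretches. TGANTCA was found before Il6 only among these genes, at 249 bases before the start, and in 6.75% of all stretches. TATAAA lay 31 bases before the Il2 start and 30 bases before the Ifng start, and in 12.4% of all stretches. The CRE letters TGACGTCA, the E-box letters CACGTG and the T-box letters AGGTGTGA had no match before any of these 4 genes. The GGAAA core was the searched pattern that Il2 and Csf2 both held, and it is common. Matches are a description of these stretches before the annotated start sites and do not show binding. Other start sites of these genes were not searched, so a missing match holds for these stretches only. Promoter entries were found for 8 of the 10 genes, all but Il10 and Il15.

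The receptors of these cytokines were mostly lower in DX5- cells. In DX5- cells 5 of 15 detected receptor chains were lower by 2-fold or more and 1 was higher, and the median log2 ratio was -0.71. This median was -0.21 under a 99th percentile limit and -0.37 with the mean over probe sets.

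The receptor of IL-18, the cytokine that acts with IL-12 to induce interferon gamma in NK cells, was lower in both of its chains. Il18r1, the binding chain, read 1318 in DX5- cells, against 5398 in DX5+ cells, 4.09-fold lower in DX5- cells. Il18rap, the signalling partner, read 2377 in DX5- cells, against 7215 in DX5+ cells, 3.04-fold lower, and its other probe set was 3.43-fold lower. These are the receptor chains of the cytokine that was itself undetected. Beside them Casp1, the protease that matures IL-18, read 767 in DX5- cells, against 823 in DX5+ cells, while Nlrp3, a sensor that activates this protease, was 2.12-fold lower in DX5- cells. Pycard (ASC), the adaptor between them, was 1.46-fold lower in DX5- cells, and Il18bp, a secreted inhibitor of IL-18, was below both limits.

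Il2 and its high-affinity receptor chain differed in the same direction. Il2ra (CD25) read 377 in DX5- cells, against 139 in DX5+ cells, 2.71-fold higher in DX5- cells. Its other probe set read 238 and 145.5, 1.64-fold higher. Il2rb, the chain shared by the IL-2 and IL-15 receptors, read 12977 in DX5- cells, against 13955 in DX5+ cells. Il15ra, which presents IL-15, read 318 in DX5- cells, against 328 in DX5+ cells. Of the IL-2 and IL-15 receptor chains with a value, the inducible chain Il2ra alone was past 2-fold. Under a 99th percentile limit, 385 for DX5- and 159 for DX5+, Il2ra was below both limits, narrowly so in DX5- cells, and had no fold.

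For GM-CSF, ligand and receptor lay on opposite sides. Csf2rb, the common beta chain that signals for GM-CSF, read 264 in DX5- cells, against 1021 in DX5+ cells, 3.86-fold lower in DX5- cells. Csf2ra, the binding chain, read 163 in DX5- cells, against 118 in DX5+ cells, 1.38-fold higher. Csf1r, the M-CSF receptor of macrophages, read 75.9 in DX5- cells, below the limit, and 233 in DX5+ cells, at least 2.36-fold lower in DX5- cells, but a second probe set read 112 in DX5- cells, against 129.5 in DX5+ cells.

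Receptors of the other members gave smaller or less certain values. Il10ra, the IL-10 binding chain, read 943 in DX5- cells, against 2472 in DX5+ cells, 2.62-fold lower in DX5- cells. A dimmer probe set of Il10ra read 113 in DX5- cells, against 3.8 in DX5+ cells, above the limit in DX5- cells only, so the probe sets of this gene disagree in direction. Il10rb, the signalling partner, was 1.64-fold lower by its brighter probe set and 2.55-fold lower by the other (112 in DX5- cells, 285 in DX5+ cells). By its brightest probe set Il6ra, the IL-6 binding chain, was at least 1.76-fold lower in DX5- cells, the side of Il6. Its signalling partner Il6st was 1.81-fold lower in DX5- cells by its brightest probe set. That probe set read 108 in DX5- cells, near the limit, against 196 in DX5+ cells, and the other Il6st probe sets were below both limits. The Il6ra values were 66.4 in DX5- cells, below the limit, against 173 in DX5+ cells, so its bound does not show whether 2-fold was passed. A dimmer Il6ra probe set read 113 in DX5- cells, against 93.4 in DX5+ cells, below the limit, so the Il6ra probe sets disagree in direction. Ifngr1, the interferon gamma binding chain, read 14916 in DX5- cells, against 18620 in DX5+ cells, 1.25-fold lower. Its partner Ifngr2 was below both limits. Flt3, the receptor of the Flt3l product, read 70.6 in DX5- cells, below the limit, against 130 in DX5+ cells, at least 1.32-fold lower. Egfr, the receptor of amphiregulin, read 264 in DX5- cells, against 231 in DX5+ cells, 1.15-fold higher in DX5- cells by its brightest probe set. It had 7 probe sets, and this was the only probe set above both limits. Another read 106 in DX5- cells, against 66.1 in DX5+ cells, below the limit there, and the rest were below both limits.

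**Figure D3:**
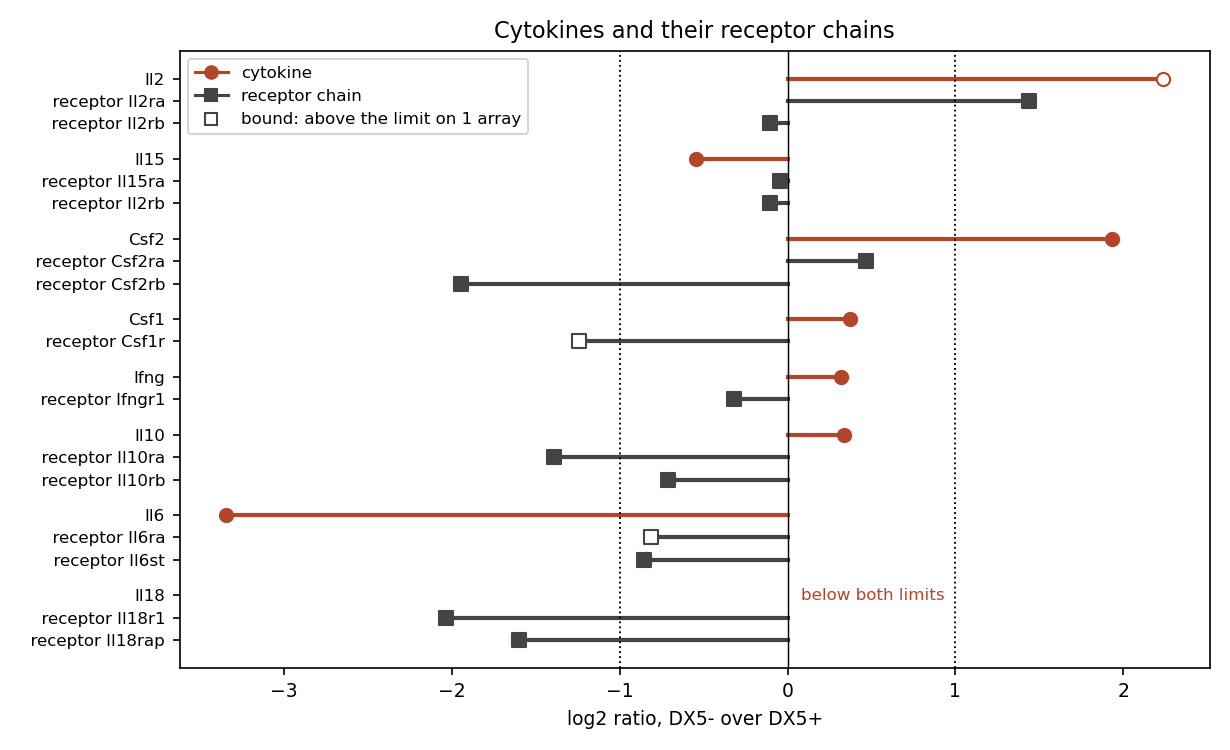
Log2 ratio of DX5- over DX5+ for the cytokines (red circles) and for receptor chains (grey squares), grouped by cytokine; open symbols are bounds and dotted lines mark 2-fold. Each gene is shown by its brightest probe set. Il2 and Il2ra both point to DX5- cells, and Csf2 and Csf2rb point opposite ways. Il6, Il6st and this probe set of Il6ra point to DX5+ cells, as do the chains of the undetected Il18. A dimmer Il6ra probe set, not shown, points to DX5- cells.

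Amphiregulin, the product of Areg, belongs to the EGF family of growth factors, and other genes of this family were examined. Of 10 such genes 3 were detected, and 2 of these passed 2-fold, both higher in DX5- cells. Tgfa, a ligand of the EGF receptor, read 593 in DX5- cells, against 163 in DX5+ cells, 3.63-fold higher. A second Tgfa probe set read 201 in DX5- cells, against 162 in DX5+ cells, 1.24-fold higher. Hbegf, a heparin-binding ligand of the same receptor, read 678 in DX5- cells, against 191 in DX5+ cells, 3.54-fold higher. These ligands are released by shedding, and the sheddase gene Adam17 read 1481 in DX5- cells, against 2477 in DX5+ cells, 1.67-fold lower. Rhbdf2, which guides this sheddase to the surface, was 1.65-fold higher, Furin, which cleaves its precursor, 1.48-fold higher, and Adam10, a related sheddase, 1.22-fold higher, all within 2-fold.

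Other interleukins, colony-stimulating factors and related cytokines were mostly undetected. Of 30 with a probe set of their own 21 were below both limits, among them Il4, Il5, Il13, Il21 and Csf3. Of the 9 detected 3 were lower in DX5- cells by 2-fold or more and 0 were higher, and the median log2 ratio was -0.34. Osm (oncostatin M, of the IL-6 family) read 214 in DX5- cells, against 696.5 in DX5+ cells, 3.26-fold lower. Il1b, the inflammatory cytokine of macrophages and neutrophils, read 234 in DX5- cells, against 698 in DX5+ cells, 2.98-fold lower. Il1rn, its antagonist, was at least 2.24-fold lower. Il6, Osm, Il1b and Il1rn thus lay on the same side, all lower in DX5- cells.

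Markers of some other cells moved with these cytokines. Over all detected genes 5.37% were lower and 3.62% higher in DX5- cells by 2-fold or more. On the side of Il6, 6 of 7 detected macrophage genes were lower in DX5- cells by 2-fold or more, led by Lyz1 (6.40-fold), and their list summed to an intensity of 1938 in DX5- cells and 6811 in DX5+ cells. The defining Kupffer cell genes Clec4f, Timd4, Marco, Vsig4 and the C1q chains were below both limits. Platelet genes were lower to this extent for 6 of 8 detected (sums 1709 in DX5- cells and 5896 in DX5+ cells), while Itgb3 was 2.66-fold higher. Neutrophil genes were lower for 3 of 6 (sums 4802 in DX5- cells and 9941 in DX5+ cells), while Mmp9 was 4.74-fold higher. Basophil and mast cell genes were lower for 1 of 5 (2543 in DX5- cells, 3503 in DX5+ cells). Endothelial genes were lower for 1 of 6, Fcgr2b, which immune cells express too; the list summed to 1778 in DX5- cells and 5630 in DX5+ cells with it, and to 1400.3 in DX5- cells and 1630 in DX5+ cells without it. B cell genes had 0 of 6 past 2-fold (sums 1630.5 in DX5- cells and 1215.5 in DX5+ cells). Dendritic cell genes were lower for 2 of 8 (sums 10177 in DX5- cells and 10178 in DX5+ cells). Hepatocyte genes were lower for 1 of 4, and stellate cell and fibroblast genes for 0 of 2. The part of these cells in the Il6, Il1b, Osm and Csf1r values was not tested. In bulk samples fewer cells of a type and less RNA per cell cannot be told apart.

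On the side of Il2 and Csf2, 7 of 11 detected T cell genes were higher in DX5- cells by 2-fold or more and 0 lower. Cd3g (13.1-fold) led them, and the list summed to 30413 in DX5- cells and 12453 in DX5+ cells. Cd3g alone, at 14036 in DX5- cells and 1072 in DX5+ cells, made up much of that gap. Cd28 was 1.10-fold lower, and Cd247, a CD3 chain outside this list, was 2.12-fold lower in DX5- cells. Cd4 and Cd8b1 were below both limits. Genes of immediate early response, which cells switch on within minutes of stimulation or handling, were higher to this extent for 8 of 24 and lower for 0. Their median log2 ratio was 0.66, and Junb (2.90-fold), Egr2 (2.53-fold) and Atf3 (2.49-fold) led them. Fos, Jun and Junb encode AP-1. Both sorts excluded surface CD3. Il2 and Csf2 also lay on the side of the resident NK and ILC1 markers, and Il6 on that of the circulating NK markers. The part of T cells, of stimulation and of the mix of NK subsets in these values was not tested.

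Regulators that act on Ifng and Il2 went both ways. In DX5- cells 4 of the 20 detected were higher by 2-fold or more and 3 were lower, and the median log2 ratio was 0.16. Eomes, an NK cell T-box factor that activates Ifng, read 1991 in DX5- cells, against 16107 in DX5+ cells, 8.09-fold lower, beside the 1.25-fold higher Ifng. Tbx21 (T-bet), the other T-box factor of this list, read 9474.5 in DX5- cells, against 7704 in DX5+ cells, 1.23-fold higher. Ikzf2 (Helios), an Ikaros family factor, was 5.46-fold higher.

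Genes known to respond to these cytokines were read on the same arrays. Of 8 genes induced by STAT5, which carries IL-2 and IL-15 signals, 3 were higher in DX5- cells by 2-fold or more and 1, Osm, was lower. Their median log2 ratio was 0.64, which rests in part on Bcl2, whose 5 probe sets disagree in direction. The brightest was 1.79-fold higher in DX5- cells, another 1.60-fold higher and another 1.03-fold higher. The others were 1.87-fold and 1.63-fold lower. The genes of STAT5 itself were lower in DX5- cells, Stat5a 2.33-fold and Stat5b 2.21-fold. Socs2, a feedback inhibitor, read 7828 in DX5- cells, against 1215 in DX5+ cells, 6.44-fold higher. Cish, another, read 9482 in DX5- cells, against 2161 in DX5+ cells, 4.39-fold higher. The list also holds Il2ra, counted above among the receptors. Of 14 detected genes induced by interferon gamma 3 were higher by 2-fold or more and 3 were lower, and the median log2 ratio was 0.10. Igtp, an interferon-induced GTPase, was 3.53-fold higher, Socs1, a feedback inhibitor, 2.81-fold higher, and Cxcl9, a chemokine, at least 3.59-fold lower.

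**Figure D4:**
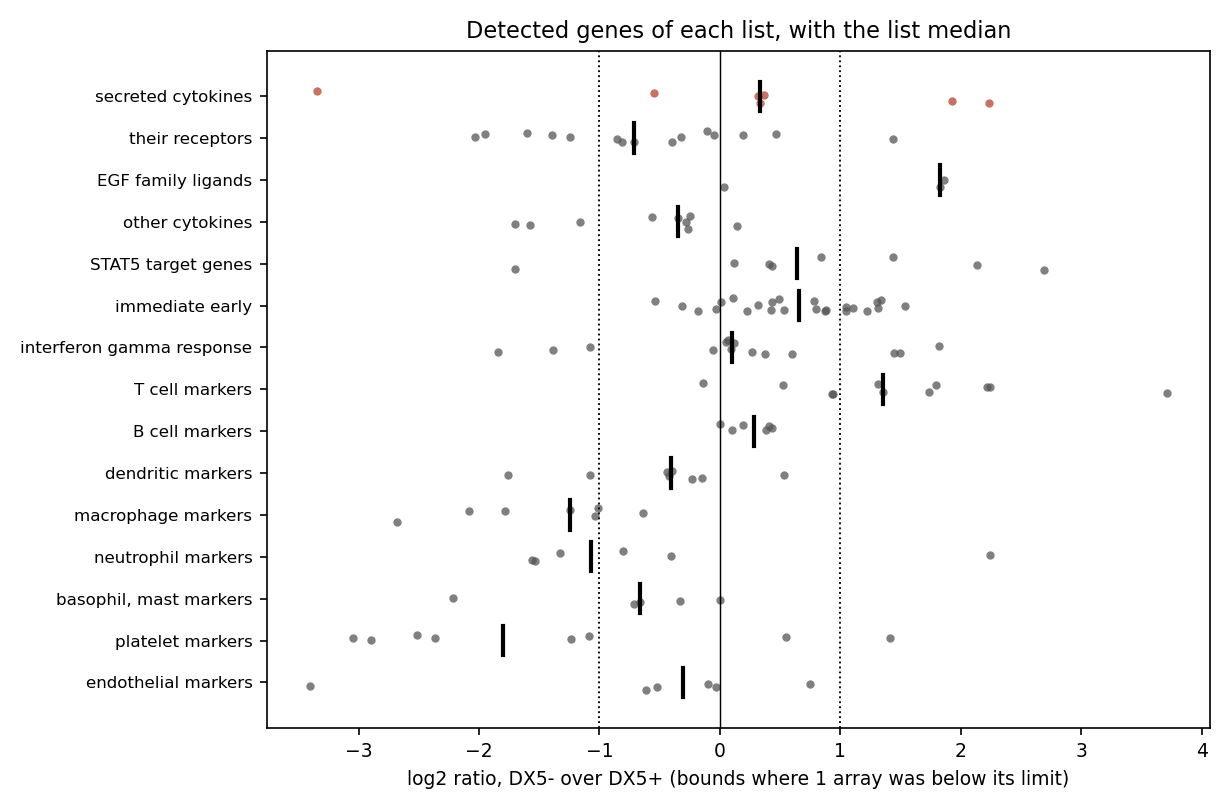
Log2 ratio of DX5- over DX5+ for every detected gene of each list (points; bounds where 1 array was below its limit), with the list median as a black bar and dotted lines at 2-fold. The cytokines spread from -3.34 to 2.24 around a median of 0.33, the medians of their receptors and of macrophage and platelet markers lie left of 0, and those of STAT5 target, immediate early and T cell genes lie right of it.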

How the data were processed

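The deposited table held 1 MAS5 intensity per probe set and array on a linear scale, made by the authors with MAS5, per the submitters' processing notes; the sources used here give no version, settings or detection calls. It had 45101 probe sets, 64 of them controls, with median intensities of 70.3 (DX5-) and 78 (DX5+). The trimmed mean over the central 96% of probe sets was 499.8 on both arrays. The platform annotation gave 1 gene symbol to 34958 probe sets and several to 932, which name no gene here; the other 9211 are unnamed here, and 34754 matched RefSeq gene identifiers with 0 renamed.

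The probe set brightest on average (mean log2 of both arrays) stood for its gene. Values were taken to log2 without offset or rescaling. The detection limit was the 95th percentile of olfactory, vomeronasal, taste, keratin-associated, crystallin and opsin probe sets. Bounds that pointed the wrong way were given a log2 ratio of 0. Python 3.11.15, pandas 2.3.3 and numpy 2.4.6 were used, and steps were tested on simulated data.

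Named genes were all members, receptors and processing genes, and every other cytokine past 2-fold. Each further list gave up to 3 detected genes with the largest ratio. Undetected genes and the second probe sets, with Itgb3, Cd28, Cd247, Tbx21, Stat5a and Stat5b, were named after their values were seen. Members, gene lists and motifs were chosen with earlier results of these data known. Alternatives were the detection limit, scaling, offset and choice of probe set. With 1 array per group no test was made, and the number of arrays limits the precision.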

Additional observations from a re-analysis of the deposited data

How the results depend on the processing

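Of 149 values recomputed under 10 alternatives for 15 results, 133 stayed within the probe-set SD or, for counts, within 1.5 times, 16 moved further and 0 reversed. The limit at the 99th percentile (385 for DX5-, 159 for DX5+) gave log2 ratios of 1.67 for Il2, -1.59 for Il6 and 0 for Il15, the value assigned where a bound falls on the wrong side, and it left Il2ra undetected and so 0 receptor chains at least 2-fold higher, a receptor median of -0.21 and 249 of all genes at least 2-fold lower. With no limit Il2 had 3.04, and 1890 of all genes were higher and 2840 lower; with the array median as limit Il2 had 2.70. An offset of 50 gave 1.82 for Il2 and -2.88 for Il6, and the mean over probe sets a receptor median of -0.37. Spike-in scaling gave 598 genes higher and 350 lower, against 356 and 529 as deposited. It raised the median log2 ratio of all genes by 0.20 and median centring raised it by 0.14, and the members moved with it. A limit without Crybg1, Crybg2, Crybg3 and Opn3, chosen after seeing the data, lay at 76.2 (DX5-) and 80.1 (DX5+) and gave 2.66 for Il2. The cause of these moves is the construction of the limit, offset, scaling or choice of probe set. No replicate could be left out. No paired analysis was possible because each population had 1 array. Il10 and the DX5- values of Il15 and Il6 lay near the limits and the DX5+ value of Il2 under its limit, where signal over background sets what can be read. Under the 99th percentile limit Il10 was below both limits and had no value.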

Other observations

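Regulators of cytokine mRNA stability, which bind AU-rich or stem-loop elements of these short-lived transcripts, were within 2-fold for 10 of 11 genes, with a median log2 ratio of 0.21. Zc3h12c, of the Regnase family, read 112 in DX5- cells, against 306 in DX5+ cells, 2.73-fold lower in DX5- cells. Khsrp, a decay factor, was 1.82-fold higher by its brightest probe set and 1.33-fold higher by another. Its remaining probe set showed no such difference, with 854 in DX5- cells, against 861 in DX5+ cells. Zfp36 (tristetraprolin) was 1.75-fold higher. Of 7 genes induced through STAT3, which carries IL-6 and IL-10 signals, 2 were higher in DX5- cells by 2-fold or more and 0 were lower. Their median log2 ratio was 0.41. Il4ra, a receptor chain of IL-4, read 7150 in DX5- cells, against 2502 in DX5+ cells, 2.86-fold higher, and Junb was 2.90-fold higher. Bcl3, an NF-kB regulator, read 982 in DX5- cells, against 1539 in DX5+ cells. Of the 4 detected genes of type 2 innate lymphoid cells 1 was past 2-fold, Arg1 (arginase), with a level at least 2.78-fold higher in DX5- cells. Il5 and Il13 were below both limits.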
